A study of Mus musculus with 48 samples.

Results

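Fatty acid oxidation and ketogenesis were followed through 31 genes of the 29331 in the count table. The genes were chosen by symbol, as enzymes, carriers and binding proteins of mitochondrial and peroxisomal beta-oxidation and of ketone body synthesis, with earlier results of these data known. The rule itself reads no measured value. All 31 passed the filter on low counts in every model. On days 3 and 5 of lipopolysaccharide (LPS), 19 and 12 of the 31 genes were called lower than in controls at the same hour. Of all genes tested, 10.3 and 5.68% were called lower. In a wider fit of all 48 libraries the counts were 14 and 7 against the same controls (9.44 and 5.81% of all genes). They were 10 and 0 against controls of the hour nearest by clock gene levels (3.38 and 1.44% of all genes). That reading of time was not checked in LPS livers. On day 7 Cd36 and Bdh1 were called against controls at that hour, both higher (5.71% of all genes were). The highest values of both lay in the 2 libraries of that group that stood apart. Leaving these out left a lone library, too few to decide whether the calls rest on them. On days 9 and 11 none of the 31 passed the test, where 0.429 and 0.261% of all genes did. LPS livers lay below every control library for 9 and 14 of the 31 (9.02 and 8.17% of all genes).

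The libraries are poly(A) RNA of livers from male wild-type mice. LPS, an outer membrane component of Gram-negative bacteria that triggers innate immune signalling, was given continuously for 7 consecutive days, and a negative control (NC) group was kept beside it. On day 7, LPS and NC livers were taken every 4 h starting at ZT1, 6 times in all, where ZT (Zeitgeber time) counts hours within the light and dark cycle. At ZT21 there were also LPS livers of day 3 and day 5, while LPS was being given, and of day 9 and day 11, when it had ended, all without NC livers of the same day. Each of the 16 groups had 3 libraries, which the labels call biological replicates without tying each to an animal, and p-values thus rest on the spread among libraries, which may be technical. The sources used here give no strain, age, dose, route or feeding.

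Long-chain fatty acids enter hepatocytes with the help of the surface receptor CD36 and are held in the cytosol by the binding protein FABP1. Carnitine palmitoyltransferase 1a (Cpt1a) loads them onto carnitine at the outer mitochondrial membrane, the carrier Slc25a20 moves the acylcarnitine inward, and Cpt2 hands the chain back to coenzyme A. Each turn of the beta-oxidation spiral then oxidises, hydrates, oxidises again and cleaves the chain, releasing acetyl-CoA that the liver turns into ketone bodies during fasting. Peroxisomes shorten chains that are too long for mitochondria. Many of these genes are targets of the nuclear receptor PPAR-alpha, which with its partner RXR binds direct repeats of AGGTCA spaced by 1 base.

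The promoters of the members at the entrance of the pathway are shown because uptake, binding and transport genes moved in different directions in these livers. Each is the 250 bases before the start that RefSeq lists, in build GRCm38.p6, 5′ to 3′ on the gene's strand, with capitals marking matches to the single site AGGTCA on either strand and, in Fabp1, also the direct repeat spaced by 1 base (DR1), searched on both strands with 1 open base in each copy. RefSeq held promoters for 26 of the 31 genes. Fabp1 lies at chr6:71199629-71199878, plus strand, Cpt1a at chr19:3323051-3323300, plus strand and Cd36 at chr5:17835897-17836146, minus strand. The windows of Cpt1a and Cd36 lie inside the annotated genes (chr19:3322334-3385733 and chr5:17781690-17888801). The annotated first bases of these genes lie further upstream, and promoters there were not searched.
Fabp1: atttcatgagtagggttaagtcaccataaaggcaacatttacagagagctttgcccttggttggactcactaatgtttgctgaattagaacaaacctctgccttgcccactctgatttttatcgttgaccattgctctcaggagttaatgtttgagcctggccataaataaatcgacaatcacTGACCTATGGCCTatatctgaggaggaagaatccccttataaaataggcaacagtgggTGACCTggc
Cpt1a: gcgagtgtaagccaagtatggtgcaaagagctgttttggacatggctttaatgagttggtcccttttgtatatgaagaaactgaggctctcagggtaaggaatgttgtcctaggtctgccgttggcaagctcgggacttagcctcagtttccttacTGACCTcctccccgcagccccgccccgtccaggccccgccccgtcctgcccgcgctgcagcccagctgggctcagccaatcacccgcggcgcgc
Cd36: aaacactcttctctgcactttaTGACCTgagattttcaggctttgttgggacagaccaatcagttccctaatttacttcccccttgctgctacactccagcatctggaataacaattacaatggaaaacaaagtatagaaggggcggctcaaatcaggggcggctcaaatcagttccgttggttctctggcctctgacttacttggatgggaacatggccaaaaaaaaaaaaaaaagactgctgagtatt

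In Fabp1 the direct repeat TGACCTATGGCCT began 67 bases before the start and was the one match among the 27 member promoters, each 300 bases long with 50 bases past the start. The same motif was found in 0.381% of 32851 promoters. The single site AGGTCA alone, on either strand, searched after the values had been seen, stood in the 250 bases before the start of Acadm, Acadvl, Cd36, Cpt1a, Echs1 and Fabp1, 6 of 27 promoters, against 14% of all promoters. No member promoter held the E-box CACGTG (7.15% of all promoters), the D-box TTATGTAA (0.938%) or the ROR element, which contains AGGTCA (0.219%). A match describes letters in this window only, and no match says nothing of the factor.

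Total counts ran from 28.2 to 45.3 M per library. Counts were scaled to library size as CPM (counts per M counts of the library) with TMM factors, which correct for differences in composition between libraries, and a gene is called where edgeR's quasi-likelihood test gave an adjusted p under 0.05. On day 7, 4 LPS libraries stood apart on the first principal component, replicate 2 of ZT1, replicate 2 of ZT13 and replicates 1 and 3 of ZT21. In replicate 2 of LPS at ZT1 the 31 genes took 0.289% of all counts, against 0.652 to 1.28% in the other 47 libraries, and 27 of the 31 had their lowest value of the 36 day-7 libraries there. Acute-phase genes summed to 117440 CPM in that library, against 2184 to 9689 CPM in the other LPS libraries of day 7. For some of the calls that include these libraries, the value without them is given beside the call.

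Albumin, a defining hepatocyte gene, was at 49426 CPM or more in every library. Levels between genes were compared per kb of all annotated exons of a gene, and their order depends on that choice. Fabp1 stood first in NC livers of day 7 at 4708 ± 707 CPM per kb of exon (mean ± SD, n = 18), followed by the peroxisomal thiolase gene Acaa1b at 586 ± 118 and the mitochondrial thiolase gene Acaa2 at 520.3 ± 49.0. Fabp1 lay above both beyond the spread of these libraries, while Acaa1b and Acaa2 overlapped. Crat, the acetyl group transferase, and Cd36 stood last at 8.67 ± 3.12 and 5.62 ± 1.89 CPM per kb.

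Summed over the 31 genes, the share of all counts was 0.683, 0.709 and 0.724% in LPS livers of day 3 and 0.652, 0.655 and 0.828% in LPS livers of day 5, both taken at ZT21. It was 0.978 to 1.28% in LPS livers of day 7, 0.812 to 0.944% on day 9 and 0.846 to 0.882% on day 11, against 0.890 to 0.967% in NC livers at ZT21. Thus no library of days 3, 5 or 11 reached the NC range, and the groups of day 9 and NC overlapped. Fabp1 and Acaa1b had the most counts of the 31 genes in NC livers and weigh most in this share. Fabp1 had 2249 to 2602 CPM in NC livers at ZT21 and 823 to 1349 CPM on day 3 of LPS. Acaa1b had 1172 to 1507 CPM in those NC livers and 373 to 589.5 CPM on day 3.

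**Figure D1:**
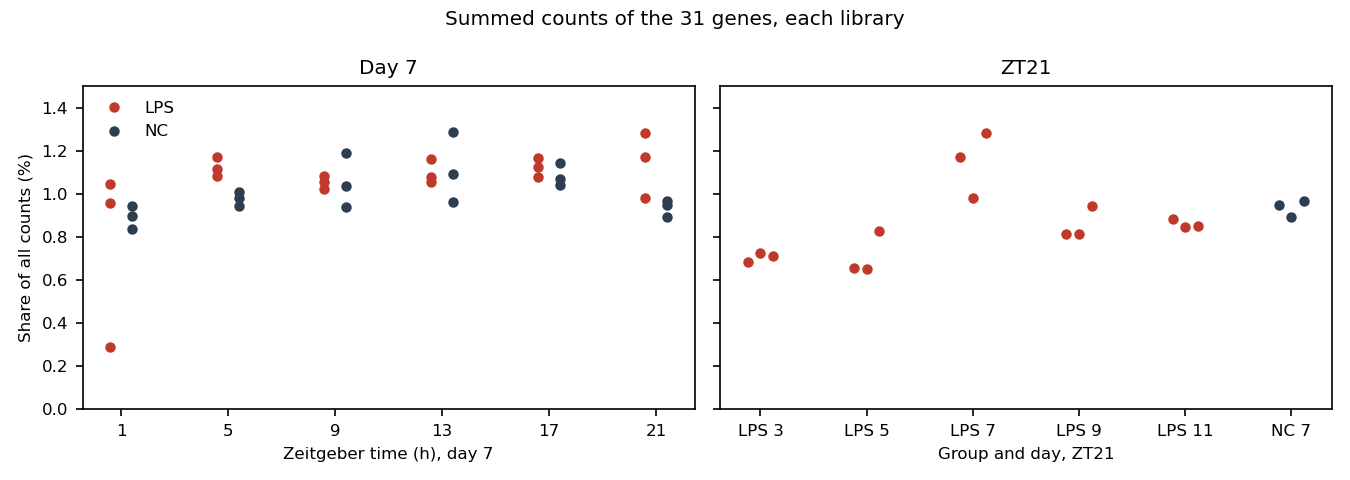
Share of all counts taken by the 31 genes, in percent, in each library of day 7 by Zeitgeber time (left) and of ZT21 by day (right). Red points are LPS and dark points NC. LPS livers of days 3 and 5 lay between 0.652 and 0.828%, below the 3 NC livers of ZT21, and the lowest point, 0.289%, is replicate 2 of LPS at ZT1. Fabp1 and Acaa1b had the most counts of the 31 genes in NC livers and weigh most in the share.

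On day 3 of LPS, 19 of the 31 genes were called lower than in NC livers at ZT21 and none higher, where 10.3% of the 16101 genes tested were called lower. The median log2 change over the 31 genes was -0.50, against 0.01 over all genes tested. All 3 LPS livers lay below all 3 NC livers for 22 of the 31 genes and above for 3, against 20.6 and 20.8% of all genes. On day 5, 12 genes were called lower (5.68% of all genes) and Cd36 was called higher (5.91%), with a median of -0.25 over the 31 genes and 0.02 over all genes. The 13 calls of day 5 were 6 without replicate 1 or without replicate 2 of day 5 and 8 without replicate 2 of NC. These are bulk samples, in which fewer cells of a type and less RNA per cell cannot be told apart.

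**Figure D2:**
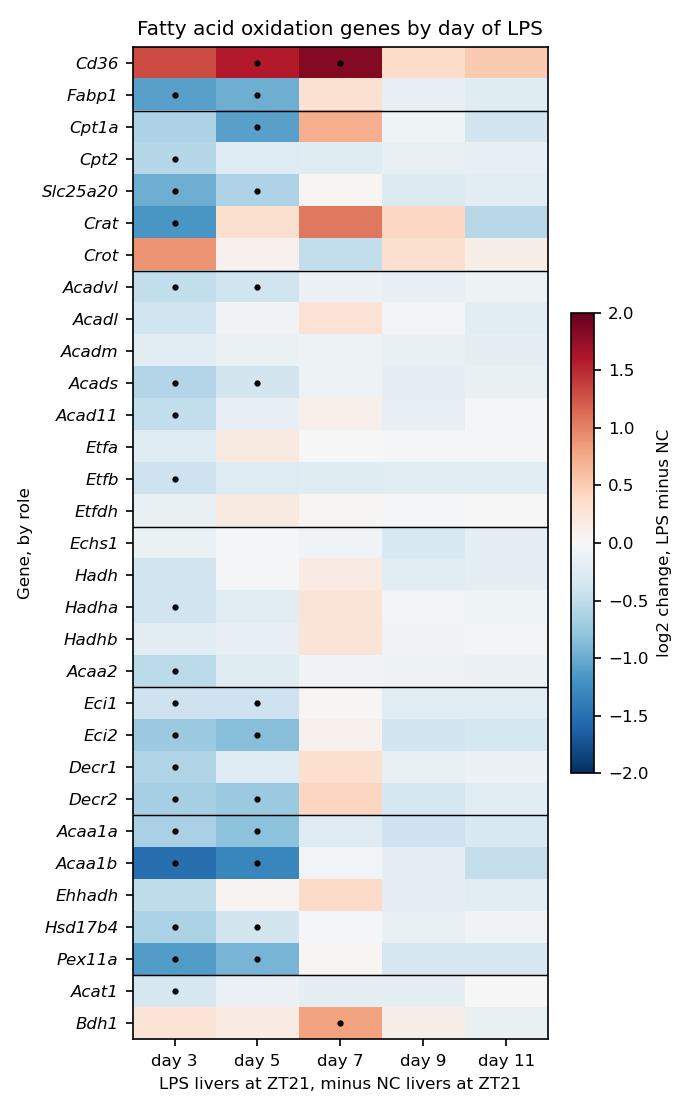
Log2 change of the 31 genes in LPS livers of days 3 to 11 minus NC livers of day 7, all at ZT21, ordered by role. Black dots mark adjusted p under 0.05. Blue prevails on days 3 and 5, with Acaa1b lowest at -1.51 on day 3, and Cd36 is red on all 5 days, called on days 5 and 7.

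Of the 5 peroxisomal genes, 4 were lower on both days. Pex11a (chr7:79735957-79743131, minus strand), which divides and enlarges peroxisomes, had 35.2, 34.4 and 38.0 CPM in LPS livers of day 3 and 41.3, 43.1 and 37.5 CPM on day 5, against 74.3, 75.2 and 82.6 CPM in NC livers. All 6 LPS values lay under the lowest NC value, and the log2 change was -1.11 ± 0.12 (SE, adjusted p = 1.62e-05) on day 3 and -0.93 ± 0.12 (SE, adjusted p = 0.000188) on day 5. The thiolase gene Acaa1a (chr9:119339676-119350299, plus strand), which cleaves the shortened chain, had 145, 154 and 156 CPM on day 3 and 127, 127 and 146 CPM on day 5 of LPS, against 219.8, 247 and 242 CPM in NC livers. All 6 LPS values lay below NC, with a log2 change of -0.65 ± 0.10 (SE, adjusted p = 0.000371) on day 3 and -0.83 ± 0.10 (SE, adjusted p = 0.000153) on day 5. Its close copy Acaa1b had the largest log2 fall of the 31 genes on day 3, with 482, 589.5 and 373 CPM in LPS livers of day 3 and 459, 403 and 800.1 CPM of day 5, against 1172, 1407 and 1507 CPM in NC livers (-1.51 and -1.30 in log2). Of the 100-base words in their transcripts, 15.7% of Acaa1a and 22.6% of Acaa1b are shared between these copies, so reads could be split between them. Hsd17b4, the D-specific bifunctional enzyme, fell by 0.63 on day 3 and by 0.36 on day 5, where the call was lost without replicate 1 or 2 of day 5 or any 1 of the NC libraries (adjusted p up to 0.156). Ehhadh, the L-specific one, was not called (-0.51 and 0.05).

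In the carnitine shuttle, the inner-membrane carrier Slc25a20 (chr9:108662088-108684641, plus strand) had 48.8, 49.3 and 44.4 CPM on day 3 and 50.8, 54.8 and 76.6 CPM on day 5 of LPS, against 86.7, 94.2 and 98.9 CPM in NC livers. Its log2 change was -0.98 ± 0.13 (SE, adjusted p = 8.58e-05) on day 3 and -0.62 ± 0.13 (SE, adjusted p = 0.00608) on day 5, with no overlap on either day. Cpt1a (chr19:3322334-3385733, plus strand), the entry step that malonyl-CoA inhibits, had 135, 144 and 114 CPM on day 3 and 65.0, 67.2 and 152 CPM on day 5, against 189, 231 and 186 CPM in NC livers. Both days lay below NC without overlap, but only day 5 was called, at -1.09 ± 0.28 (SE, adjusted p = 0.0221), and there replicate 3 stood well above the other two LPS livers. The call was lost without replicate 1 or 2 of day 5 or replicate 2 of NC (log2 change -0.99 to -0.88). Cpt2 fell by 0.57 on day 3 and was not called on day 5 (-0.26). Crat, which buffers acetyl groups as acetylcarnitine, had 13.4, 14.2 and 27.8 CPM on day 3 of LPS, against 34.2, 39.6 and 50.7 CPM in NC livers, and all 3 LPS livers lay lower (log2 change -1.17 ± 0.33, adjusted p = 0.0243). This call was lost without replicate 1 or 2 of day 3 or replicate 2 or 3 of NC (adjusted p up to 0.0943). Crot, the octanoyltransferase that exports shortened chains from peroxisomes, had 453, 559.9 and 358 CPM on day 3 of LPS, against 219, 241 and 272 CPM in NC livers, and missed the threshold at 0.90 ± 0.35 (SE, adjusted p = 0.0856). Its direction depended on the hour of the NC livers: in a fit of all 48 libraries its log2 change ran from -0.46 to 1.17 and was negative against 2 of the 6 hours. Acaa1b, Crat, Crot, Fabp1 and Etfdh are shown by library because of values already seen.

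Uptake and binding went opposite ways on day 5. Fabp1 had 1349, 1238 and 823 CPM on day 3 and 913, 896 and 1849.9 CPM on day 5 of LPS, against 2602, 2249 and 2364 CPM in NC livers. It was lower without overlap, with a log2 change of -1.09 ± 0.24 (SE, adjusted p = 0.00398) on day 3 and -0.98 ± 0.23 (SE, adjusted p = 0.0149) on day 5. The call for Fabp1 on day 5 was lost without replicate 1 or 2 of that day (adjusted p 0.0805 and 0.0830). Cd36 (chr5:17781690-17888801, minus strand) had 21.7, 31.9 and 66.0 CPM on day 3 and 57.7, 51.7 and 35.6 CPM on day 5, against 16.5, 15.6 and 16.4 CPM in NC livers. All 6 LPS values were above NC, with a log2 change of 1.30 ± 0.44 (SE, adjusted p = 0.0532) on day 3 and 1.58 ± 0.45 (SE, adjusted p = 0.0366) on day 5. Without the libraries of day 7 that stood apart, Cd36 was also called on day 3, at 1.31 (adjusted p = 0.0255). The call on day 5 was lost without replicate 1 or 2 of day 5, replicate 1 or 2 of day 9, or any 1 of the NC libraries, 7 of 18 such fits, where the adjusted p reached at most 0.121.

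Among the enzymes of the first step and of electron transfer, 4 of 8 genes were lower on day 3. Acadvl (chr11:70010183-70015411, minus strand), which starts the oxidation of very long chains, had 259, 263 and 292 CPM on day 3 and 279, 284 and 304 CPM on day 5 of LPS, against 376, 387 and 379 CPM in NC livers. These libraries did not overlap, and the log2 change was -0.50 ± 0.08 (SE, adjusted p = 0.000541) on day 3 and -0.40 ± 0.08 (SE, adjusted p = 0.0063) on day 5. Exons of Acadvl overlap those of Dvl2 on the other strand over 42.9% of their length, and the sources used here do not state whether counting used strand. The short-chain enzyme gene Acads also fell on both days (-0.58 and -0.36), and its call on day 5 was lost in 7 of 18 fits that left out 1 library, those without any 1 of day 5 or NC or without replicate 1 of day 11 (adjusted p up to 0.12). Acad11 (-0.50) and the electron acceptor subunit gene Etfb (-0.42) fell on day 3, while Acadl, Acadm, Etfa and Etfdh were called on neither day. The call for Etfb was lost without replicate 2 or 3 of day 3 or replicate 2 of NC (adjusted p up to 0.0994). Etfb shares 47.7% of its 100-base words with the annotated gene Gm45233. Of the later steps, Hadha, a subunit of the trifunctional protein, fell by 0.41 and Acaa2 by 0.54 on day 3, and Echs1, Hadh and Hadhb were not called.

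All 4 genes for unsaturated chains were lower on day 3. Eci2 (chr13:34977748-35027096, minus strand), an isomerase that moves double bonds into the position the spiral needs, had 70.8, 83.9 and 81.2 CPM on day 3 and 60.5, 66.9 and 90.3 CPM on day 5 of LPS, against 125, 131 and 137 CPM in NC livers. LPS and NC did not overlap, and the log2 change was -0.74 ± 0.13 (SE, adjusted p = 0.00086) on day 3 and -0.85 ± 0.13 (SE, adjusted p = 0.000819) on day 5. The second isomerase gene Eci1 fell by 0.41 on both days, on day 5 no longer called without replicate 1 or 2 of that day (adjusted p up to 0.0652). The dienoyl-CoA reductase genes Decr1, mitochondrial, and Decr2, peroxisomal, fell by 0.60 and 0.67 on day 3, and Decr2 also by 0.74 on day 5. The call for Decr2 was lost on day 3 without replicate 3 of NC (adjusted p = 0.0552), and on day 5 without replicate 1 or 2 of that day or replicate 2 or 3 of NC (adjusted p up to 0.0843).

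Of the 2 ketone body genes, 1 was called on day 3 and none on day 5. Acat1, which joins acetyl-CoA units, was lower on day 3 (log2 change -0.34 ± 0.10, adjusted p = 0.026), a call that was lost without any 1 of the day-3 or NC libraries, 6 of 18 such fits (adjusted p up to 0.0776). Bdh1 (chr16:31422280-31458901, plus strand), which reduces acetoacetate to beta-hydroxybutyrate, had 199.7, 197 and 185 CPM on day 3 and 175, 177 and 189 CPM on day 5 of LPS, against 174, 135 and 172 CPM in NC livers. All 6 LPS values were above the NC values, yet neither day was called (0.27 and 0.17). Against NC of the 6 hours in the fit of all 48 libraries, the log2 change of Bdh1 ran from -0.34 to 0.27 on day 3 and from -0.45 to 0.17 on day 5, negative against 3 hours on each day.

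**Figure D3:**
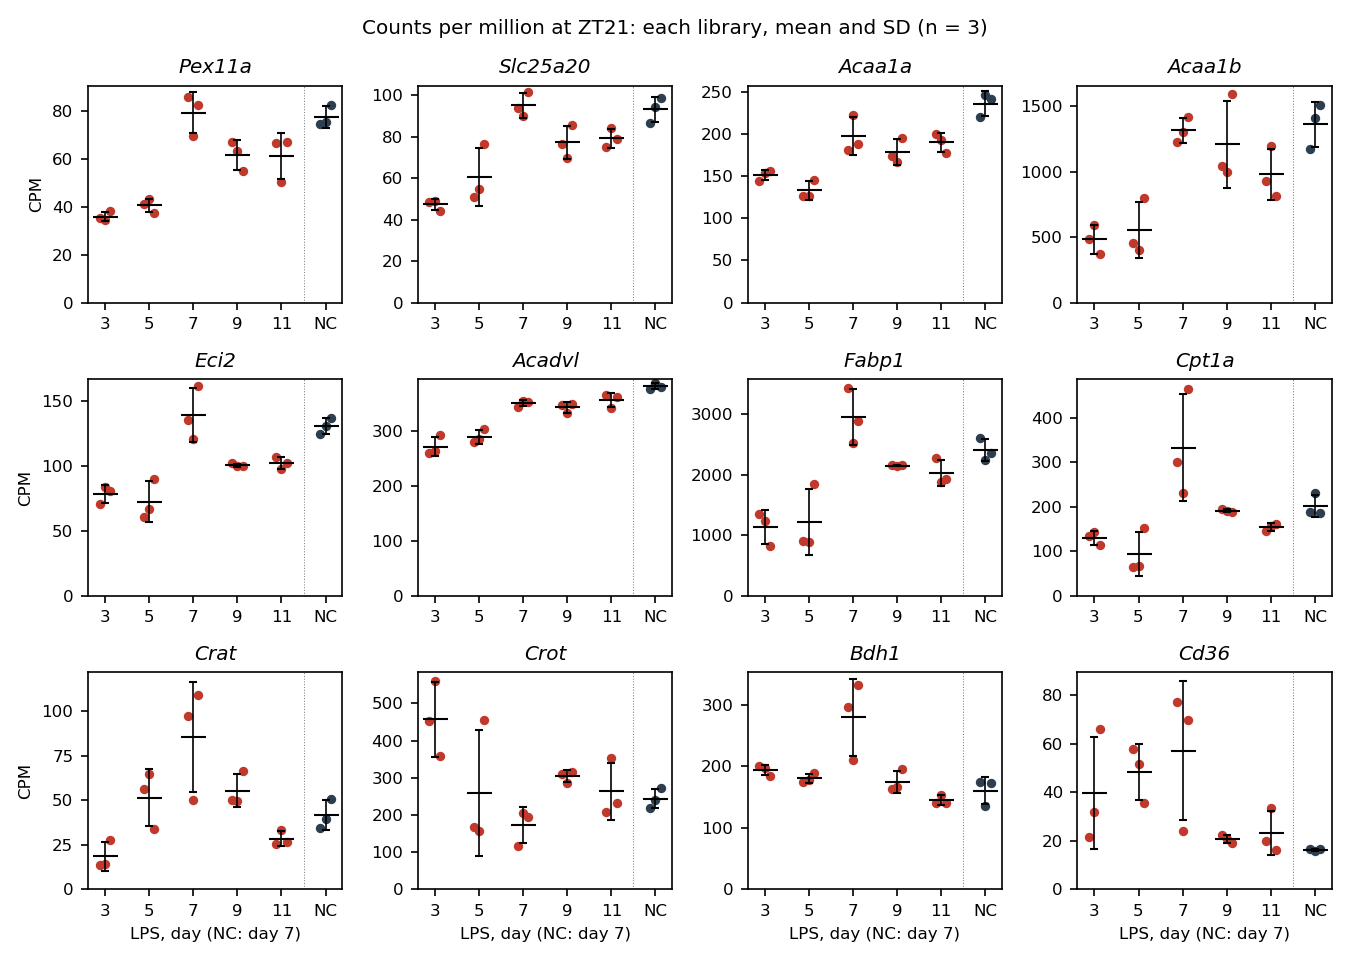
CPM (linear axis from 0) of 12 genes in each LPS library of days 3, 5, 7, 9 and 11 (red) and each NC library of day 7 (dark), all at ZT21, with mean and SD (n = 3). Pex11a, Slc25a20, Acaa1a and Eci2 are low on days 3 and 5, Crat is low and Crot high on day 3, and Cpt1a, Bdh1 and Cd36 are spread widely on day 7.

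Other cell types and the clock moved with these days. On day 3, 11 of 12 Kupffer cell and macrophage markers were called higher, and their sum was 768.5 to 934 CPM in LPS livers, against 212 to 325 CPM in NC livers at ZT21. The Kupffer cell marker Clec4f was not among them (0.30). Endothelial markers were higher for 3 of 8, with a sum of 207 to 238 CPM on day 3, against 134 to 165 CPM in NC livers, and on day 5 none was called, at 150.2 to 171 CPM. Neutrophil markers were higher for 8 of the 9 tested, with a sum of 17.6 to 24.5 CPM against 0.28 to 0.629 CPM in NC livers. The 12 hepatocyte markers summed to 84318 to 106350 CPM on day 3, against 111770 to 126380 CPM in NC livers, with 2 called lower and 1 higher. Acute-phase genes summed to 5459.9 to 5978 CPM on day 3, against 3718 to 4171 CPM in NC livers, with 7 of 10 called higher, and of 19 core clock genes 10 were lower and 2 higher. On day 5 the macrophage sum was 320.0 to 375 CPM, with 4 of 12 markers called higher, the neutrophil sum 10.3 to 15.9 CPM with 7 of 9 called higher, and the hepatocyte sum 122580 to 126460 CPM. Their part in the results of these days was not tested.

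Levels of 19 core clock genes were used to read a time for every library, as the hour whose fitted NC levels of day 7 lay nearest. Readings of NC livers missed the true hour by a median of 0.75 h and at most 2.5 h. Accuracy in LPS livers was not tested, and a change in the levels of these genes also moves the reading. Their sum was 431 to 462 CPM on day 3 of LPS, against 474 to 1328 CPM in NC livers of day 7. LPS livers taken at ZT21 read 6.3, 6.1 and 6.9 h on day 3 and 1.2, 1.1 and 4.5 h on day 5, against 20.7, 21.5 and 22.6 h in NC livers at ZT21. Both days were therefore also set against NC livers of every other hour, in a single fit of all 48 libraries added after the data were seen. Day 3 counted 5, 10, 7, 18, 19 and 14 genes called lower against NC of the 6 hours in order, ZT1 first, where 4.67, 3.38, 4.05, 10.4, 10.7 and 9.44% of all genes were lower. Medians over the 31 genes ran from -0.58 to -0.30. Against NC of the nearest clock time, ZT5, the 10 genes were Cpt2, Slc25a20, Crat, Acadvl, Acads, Eci2, Decr1, Decr2, Hsd17b4 and Pex11a.

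Slc25a20, Crat and Pex11a were lower on day 3 against NC of all 6 hours. Their smallest differences were -0.62 ± 0.18 for Slc25a20 at ZT9, -1.04 ± 0.37 for Crat at ZT17 and -0.55 ± 0.17 for Pex11a at ZT9 (SE). Cpt2, Eci2, Decr2 and Hsd17b4 were called lower against 5 of the 6 hours. Fabp1 was called against 2 hours and Acaa1b against none in this wider fit. The sign was negative against all 6 hours for 26 of the 31 genes. The 6 comparisons share the same LPS livers of day 3 and are not independent. How many of all genes were lower or negative against that many hours was not counted.

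On day 5 the counts of genes called lower were 0, 4, 5, 12, 11 and 7 against NC of the same 6 hours, with 1.44, 3.55, 6.36, 9.23, 8.81 and 5.81% of all genes lower. None was called against ZT1, the nearest clock time, where the median was -0.12. Cpt1a, Eci2, Decr2 and Acaa1a were called lower on day 5 against each of the other 5 hours. These comparisons share the same LPS livers of day 5, and the share of all genes called at each of those hours together was not counted. The count on day 5 thus depended on the hour of the NC livers.

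**Figure D4:**
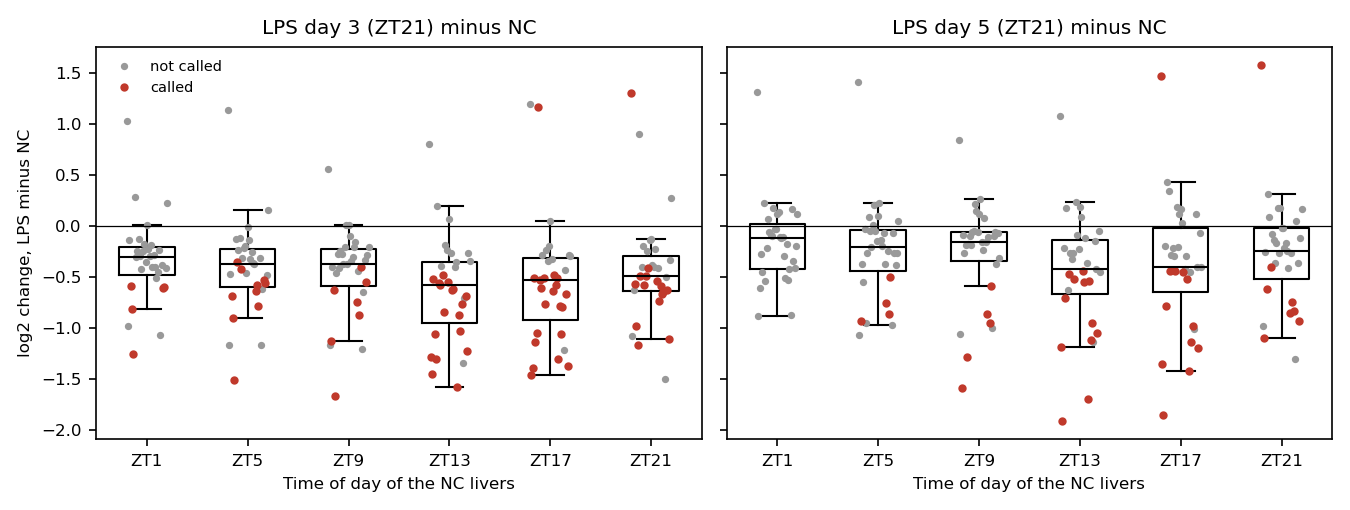
Log2 change of the 31 genes (points) in LPS livers of ZT21 on day 3 (left) and day 5 (right) minus NC livers of day 7 at each Zeitgeber time, from a fit of all 48 libraries. Boxes span the quartiles with the median, red points have an adjusted p under 0.05. On day 3 the median is below 0 against every hour, and on day 5 no gene is called against ZT1.

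Most of the genes were higher in LPS livers of day 7 than in those of day 3. A direct comparison of LPS livers of day 7 with those of day 3, added after the data were seen, used the NC libraries for the estimate of the spread alone. It called 22 genes higher (9.65% of all genes) and 1 lower, Crot (7.68%). The median change over the 31 genes was 0.54. Crat rose most, with 97.2, 50.4 and 109 CPM on day 7 against 13.4, 14.2 and 27.8 CPM on day 3 (log2 change 2.22 ± 0.34, adjusted p = 0.000771). Crot had 117, 205 and 195 CPM on day 7 against 453, 559.9 and 358 CPM on day 3 (log2 change -1.40 ± 0.35, adjusted p = 0.0146). Crat was higher and Crot lower in every library of day 7 than in any of day 3. With replicates 1 and 3 of day 7 left out, the log2 change was 1.45 for Crat and -1.16 for Crot. A lone day-7 library then remained, too few to judge which calls rest on the libraries that stood apart. The clock genes read 18.2, 20.8 and 19.6 h in LPS livers of day 7, against 6.3, 6.1 and 6.9 h in those of day 3, and macrophage markers summed to 234 to 373 CPM on day 7, against 768.5 to 934 CPM on day 3. The part of these differences in the comparison was not tested.

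Against NC at ZT21, 2 genes were called higher on day 7 (5.71% of all genes) and none lower (3.71%). Cd36 had 77.3, 24.2 and 70.0 CPM in LPS livers of day 7, against 16.5, 15.6 and 16.4 CPM in NC livers (log2 change 1.83 ± 0.45, adjusted p = 0.0254). Bdh1 had 296, 211 and 333 CPM in LPS livers of day 7, against 174, 135 and 172 CPM in NC livers (log2 change 0.81 ± 0.14, adjusted p = 0.00717). Cpt1a had 301, 231 and 465 CPM on day 7, against 189, 231 and 186 CPM in NC livers, and was not called (log2 change 0.72 ± 0.28, adjusted p = 0.113). For Cd36, Bdh1 and Cpt1a the high values lay in replicates 1 and 3, the libraries that stood apart. Without them replicate 2 alone remained, and the log2 change was 0.59 for Cd36, 0.40 for Bdh1 and 0.20 for Cpt1a. A fit with a lone library cannot decide whether the calls rest on the other libraries. In replicate 2, Cd36 and Bdh1 were above every NC library, and Cpt1a lay within the NC range. The count of 2 was 1 without replicate 1 or replicate 3 of day 7 or any 1 of the NC libraries, 5 without replicate 3 of day 5 and 8 without replicate 2 of day 7.

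On days 9 and 11 no gene was called against NC at ZT21, where 0.429 and 0.261% of all genes were called. At an unadjusted p under 0.05 there were 6 genes on day 9 and 4 on day 11, against 10.3 and 8.65% of all genes. DESeq2 called 1 and 0, and its shares of all genes are not given here. The medians were -0.16 and -0.18, and 27 of the 31 genes had a negative sign on each day. The share of all genes with a negative sign is not given here. LPS livers lay below NC without overlap for 9 genes on day 9 (9.02% of all genes) and 14 on day 11 (8.17%). Pex11a had 66.9, 63.3 and 54.8 CPM on day 9 and 66.8, 50.2 and 66.8 CPM on day 11, against 74.3, 75.2 and 82.6 CPM in NC livers, a log2 change of -0.33 ± 0.12 (SE, adjusted p = 0.293) and -0.34 ± 0.12 (SE, adjusted p = 0.371). Acaa1a had 174, 166 and 196 CPM on day 9 and 199.8, 193 and 178 CPM on day 11, against 219.8, 247 and 242 CPM in NC livers (-0.41 and -0.31). For both genes every LPS library of days 9 and 11 lay under the lowest NC library.

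Within LPS livers alone, the slope across the 5 sampled days was called upward for 15 genes (10.5% of all genes) and downward for none (9.94%). Pex11a had the smallest p, at 0.11 ± 0.01 (SE, adjusted p = 8.79e-05) log2 per day, followed by Slc25a20 at 0.09 ± 0.01 (SE, adjusted p = 0.000446), and Acaa1b had the steepest slope, 0.16 ± 0.03 (SE, adjusted p = 0.00107). The others were Fabp1, Cpt2, Acadvl, Acads, Acad11, Hadha, Acaa2, Eci2, Decr1, Decr2, Acaa1a and Hsd17b4. Of 18 fits that left out 1 library, Decr2 kept its call in 9 (adjusted p up to 0.081), Acad11 and Cpt2 in 15 and Hadha in 16, each losing it without replicate 1 of day 3, among others. In the fit of all 48 libraries Cd36 was called downward and 8 genes upward, without Cpt2, Acad11, Hadha, Acaa2, Decr1, Decr2 and Acaa1b. Without replicates 1 and 3 of day 7, Eci1 and Acat1 were called upward as well (0.03 per day each), and Cd36 and Bdh1 were called downward (-0.14 and -0.04 per day). Between day 11 and day 7, 8 genes were called lower (5.6% of all genes) and none higher (2.94%): Cpt1a, Crat, Acadl, Hadha, Eci2, Decr1, Decr2 and Bdh1. Cpt1a had 146, 158 and 162 CPM on day 11, against 301, 231 and 465 CPM on day 7 (log2 change -1.10 ± 0.28, adjusted p = 0.0274). Bdh1 had 140.4, 154 and 140.1 CPM on day 11, against 296, 211 and 333 CPM on day 7 (log2 change -0.95 ± 0.14, adjusted p = 0.00639). The day-7 libraries were higher throughout for both genes. Without replicates 1 and 3 of day 7, which left a lone day-7 library, the log2 changes of the 8 genes lay between -0.83 (Crat) and -0.23 (Eci2). They were -0.57 for Cpt1a and -0.54 for Bdh1. The count of 8 was 1 without either replicate 1 or replicate 3 of day 7 and 1 without replicate 1 or 3 of day 11. It was 2 without replicate 2 of day 11 and 12 without replicate 2 of day 7.

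Averaged over the 6 times of day 7, Cd36 and Cpt1a were higher in LPS livers (5.53% of all 16544 genes tested were higher) and none of the 31 genes was lower (3.81%). Cd36 had a lowest, median and highest value of 18.4, 38.6 and 85.1 CPM in the 18 LPS livers, against 12.4, 16.4 and 36 CPM in the 18 NC livers. In 17 of 18 LPS libraries it exceeded the NC mean of the same hour, and the log2 change was 1.12 ± 0.19 (SE, adjusted p = 0.00108), or 0.70 (adjusted p = 0.0135) without the 4 libraries apart. Cpt1a had 125, 306 and 465 CPM in LPS livers, against 109, 229 and 438 CPM in NC livers. The arms overlapped widely, the change was 0.33 ± 0.10 (SE, adjusted p = 0.045) with 15 of 18 LPS libraries above the NC mean of their hour, and it was 0.24 (adjusted p = 0.185) without the 4 libraries. Of the 36 fits that left out 1 library, all kept the call for Cd36 and 12 kept that for Cpt1a, whose log2 change ran from 0.27 to 0.37. Without replicate 2 of LPS at ZT1 alone, 7 genes were called, and the share of all genes in that fit is not given here. Without all 4, Acads, Acaa2 and Bdh1 were called higher beside Cd36, at 0.16, 0.14 and 0.29.

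CD36 is also made by macrophages, endothelium and adipocytes. On day 7, 2 of 12 macrophage markers and 4 of 8 endothelial markers were called higher in LPS livers, with sums of 205 to 823 CPM against 195 to 451 CPM in NC livers for macrophages and 148 to 297 CPM against 124 to 215 CPM for endothelium. Of the neutrophil markers 7 of 9 tested were higher, with sums of 1.57 to 143 CPM against 0.28 to 6.41 CPM in NC livers, and all 10 proliferation genes, with sums of 16.3 to 294 CPM against 11.4 to 86.2 CPM. Of 6 adipocyte genes 2 were tested and none called, and the defining genes Adipoq and Plin1 reached at most 6.49 and 6.26 CPM in LPS livers, against 0.153 and 0.185 CPM in NC livers. The 7 muscle markers summed to at most 0.304 CPM on day 7. These counts were made with the 4 libraries apart. Without them, in a fit added after the data were seen, the markers called higher were Marco of the macrophage list, Stab1 of the endothelial list, 6 of the 8 neutrophil markers tested and no proliferation gene. The part of other cells in the rise of Cd36 was not tested.

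Taken hour by hour on day 7, few genes passed the test. At ZT13 Etfdh, which passes electrons from fatty acid oxidation to ubiquinone, had 135, 128 and 126 CPM in LPS livers, against 157, 235 and 209.7 CPM in NC livers. The arms did not overlap and Etfdh was the 1 gene called lower at this hour (log2 change -0.61 ± 0.16, adjusted p = 0.0364, with 1.33% of all genes lower). Without the 4 libraries apart, Crot was called lower at ZT13 as well, at -0.84 (adjusted p = 0.0365). Cd36 was the 1 gene called at ZT21 (log2 change 1.84 ± 0.47, adjusted p = 0.0163, with 5.52% of all genes higher). Without the 4 libraries apart, which left a lone LPS library at ZT21, the change of Cd36 was 0.58. The call at ZT13 was lost without replicate 2 or 3 of either arm at that hour, and the count was 2 without replicate 3 and 3 without replicate 2 of LPS at ZT1. The call at ZT21 was lost without replicate 1 or 3 of LPS or replicate 2 or 3 of NC at that hour, and the count was 2 without replicate 1 or 3 of NC at ZT9 and 4 without replicate 2 of LPS at ZT1 or at ZT21. No gene was called at ZT1, ZT5, ZT9 or ZT17, where 0.357, 0.0121, 0.453 and 0% of all genes were called in either direction. An unadjusted p under 0.05 was found for 1, 4, 0 and 0 of the 31 genes. The shares of all genes at that level were 13.1, 7.73, 11.9 and 8.92%. DESeq2 called none at these hours. Without the 4 libraries apart, of which none was taken at ZT5, Bdh1 was called higher at ZT5, at 0.61 (adjusted p = 0.0224).

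With all libraries in the fit, 30 of the 31 genes had a positive sign at ZT5. All 3 LPS livers lay above all 3 NC livers for 22 of the 31 genes and below for none, against 9.9% of all genes above and 10.1% below. The median change was 0.20 over the 31 genes and 0.00 over all genes. Eci2 had 154, 181 and 149 CPM in LPS livers, against 131, 126 and 110.1 CPM in NC livers (log2 change 0.40 ± 0.16, adjusted p = 0.53). Cpt1a had 243, 326 and 235 CPM in LPS livers, against 197, 181 and 163 CPM in NC livers (log2 change 0.57 ± 0.26, adjusted p = 0.587). The 3 LPS livers read 5.6, 7.5 and 4.7 h on the clock genes and the NC livers 5.1, 4.9 and 4.3 h.

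**Figure D5:**
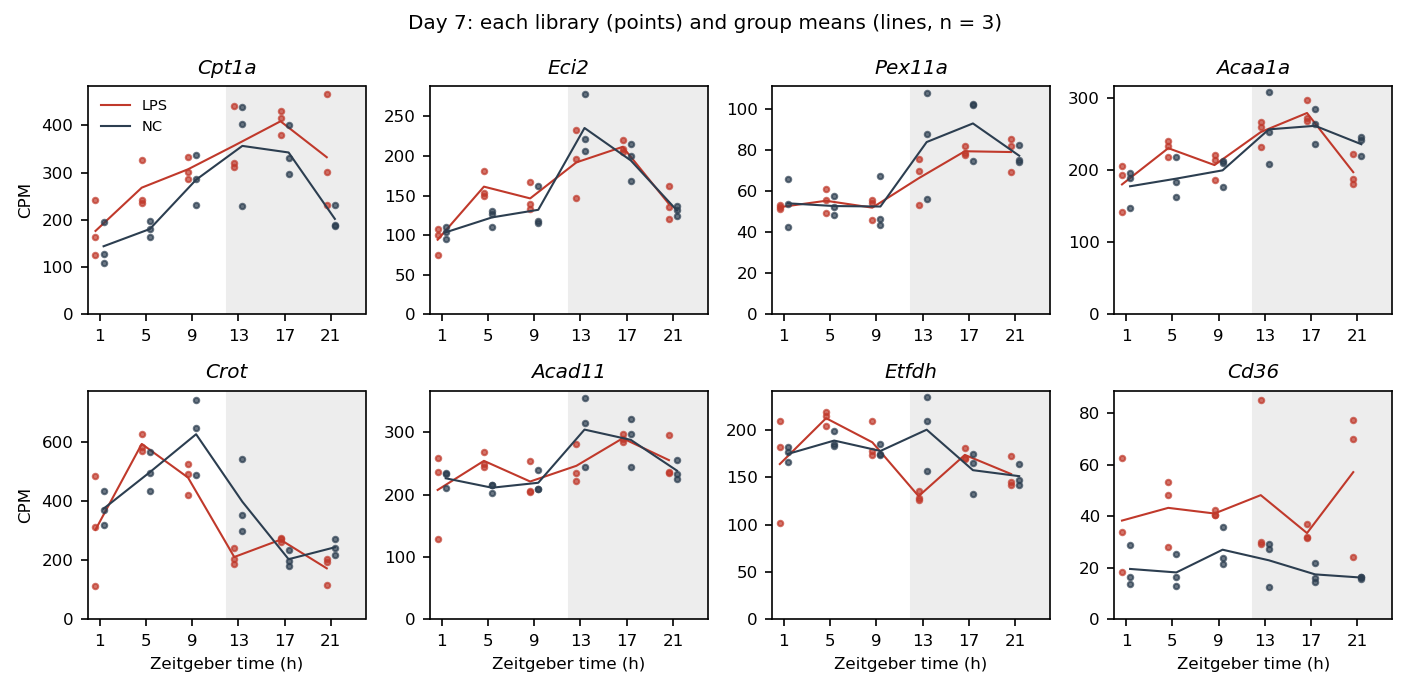
CPM (linear axis from 0) of 8 genes on day 7 by Zeitgeber time, with each library as a point and group means joined by lines (n = 3). Red is LPS and dark is NC, and the grey band is the dark phase from ZT12 to ZT24. Cpt1a, Eci2, Pex11a and Acaa1a are highest in the dark phase in both arms, Crot in the light phase, and the mean of Cd36 is higher in LPS at each hour.

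A 24 h rhythm was called for 5 of the 31 genes in LPS livers and 6 in NC livers, where 16 and 22.5% of all genes were rhythmic. With all libraries in the fit, the shares of the 31 genes were near the background. Cpt1a peaked at ZT14.8 in LPS livers and ZT13.7 in NC livers, with a fitted peak 1.90 times the trough in LPS livers and 2.59 times in NC livers. Eci2 peaked at ZT13.8 in LPS livers and ZT14.3 in NC livers (1.79 times in LPS and 2.13 times in NC). Pex11a peaked at ZT17.9 in LPS livers and ZT16.8 in NC livers (1.61 times in LPS and 1.92 times in NC). Acaa1a peaked at ZT14.0 in LPS livers and ZT15.9 in NC livers (1.38 times in LPS and 1.51 times in NC). These 4 genes peaked in the dark phase, when mice feed. Crot peaked in the light phase, at ZT6.6 in LPS livers and ZT7.2 in NC livers and the widest swing of the called genes (2.77 times in LPS and 2.91 times in NC). Acad11 was called in NC livers, with an adjusted p of 0.324 in LPS livers and 0.0226 in NC livers, at 1.22 times in LPS livers and 1.43 times in NC livers. Without the 4 libraries apart, the rhythm of Acaa1a in LPS livers missed the threshold (adjusted p = 0.0644), and those of Acat1 and Etfdh were called there (adjusted p = 0.00587 and 0.0361).

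No gene differed in rhythm between the arms by the test of the difference itself, where 0.169% of all genes did. At an unadjusted p under 0.05 there was 1 gene, Crat, against 14.8% of all genes, and DESeq2 called none. The interaction of LPS with time of day was called for none of the 31 genes, against 1.7% of all genes, and DESeq2 called none. Crot and Etfdh had an unadjusted p under 0.05 for it, as had 22.1% of all genes. Without the 4 libraries apart, 18 genes were rhythmic in NC livers, against 30.4% of all genes, with the same 18 NC libraries in the fit. With only replicate 2 of LPS at ZT1 left out, the count in NC livers was 15 and the interaction was called for 2 genes. The shares of all genes in that fit are not given here.

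Of 66 further genes of fatty acid oxidation, 65 were tested. On day 3, 18 of them were called lower and 4 higher, where 10.3% of all genes were called in each direction, with a median of -0.31 over the 65 genes. On day 5, 8 were lower and 4 higher, against 5.68% of all genes lower and 5.91% higher, with a median of -0.10. Acsl1, which activates long-chain fatty acids, had 566, 647 and 502 CPM on day 3, against 1356, 1090.4 and 1341 CPM in NC livers (log2 change -1.15 ± 0.18, adjusted p = 0.00032). All 3 LPS livers of day 3 lay below NC for this gene. Acacb, whose product malonyl-CoA restrains Cpt1a, was also lower on day 3, at 33.0, 26.7 and 82.2 CPM against 286, 193 and 226 CPM in NC livers (log2 change -2.32 ± 0.43, adjusted p = 0.00204). Oxct1, which uses ketone bodies in tissues other than hepatocytes, was higher (log2 change 0.97 ± 0.29, adjusted p = 0.0264), as were Fabp4, Slc16a6 and Abcd2. On days 9 and 11 none of the 65 was called.

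Among 27 regulators and PPAR-alpha target genes, 8 were lower and 1 higher on day 3, and 8 lower and 3 higher on day 5, with the same shares of all genes as background. The coactivator gene Lpin1 had 19.6, 17.2 and 18.5 CPM on day 3 and 60.7, 72.8 and 41.3 CPM on day 5, against 370.4, 493 and 374 CPM in NC livers (log2 change -4.49 ± 0.47, adjusted p = 3.77e-05 on day 3 and -2.82 ± 0.43, adjusted p = 0.0017 on day 5). Angptl4, an inhibitor of lipoprotein lipase, had 7.38, 7.22 and 4.19 CPM on day 3, against 95.4, 128 and 74.9 CPM in NC livers (log2 change -3.99 ± 0.48, adjusted p = 0.000111). Both were below NC at ZT21 in every library. Over all hours of day 7, NC livers had 22.3 to 493 CPM of Lpin1, with a fitted peak 16.8 times the trough, and 17.9 to 196 CPM of Angptl4, and the part of the clock reading in these differences was not tested. Ppara itself, shown for its role, was not called on day 3, at 20.9, 22.8 and 27.6 CPM in LPS livers against 36.9, 43.1 and 22.9 CPM in NC livers (log2 change -0.54 ± 0.23, adjusted p = 0.111). The fasting hormone gene Fgf21 was higher on day 5 (log2 change 4.90 ± 1.01, adjusted p = 0.0088), at 13.4, 14.1 and 1.06 CPM against 0.0629, 0.342 and 0.539 CPM in NC livers, with replicate 3 far below the other LPS livers. Over all hours of day 7, Fgf21 in NC livers ran from 0.0629 to 33.5 CPM, with a fitted peak 69.4 times the trough, so that the values of day 5 lay within the NC range of the whole day. After administration ended, Lpin1, Lpin2 and Klf15 were still lower on day 9 (-2.69, -1.31 and -0.92) and Lpin2 and Klf15 on day 11 (-1.25 and -0.98). Klf15, which drives amino acid and fatty acid breakdown in fasting, had 109, 130.3 and 111 CPM on day 11. NC livers at ZT21 had 203, 289 and 200.3 CPM, with no overlap. Over all hours of day 7, NC livers had 90.5 to 289 CPM of Klf15 and 71.8 to 369 CPM of Lpin2. Both genes were called rhythmic in NC livers, and the values of Klf15 on day 11 lay within the NC range of the whole day.

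On day 7, the averaged comparison called 5 of the 65 further oxidation genes higher (5.53% of all genes were), among them the peroxisomal transporter gene Abcd2 (0.91), the peroxisomal thioesterase gene Acot3 (1.40), Slc27a1 (0.30) and Fabp4 (0.51), and 1 lower, Acadsb (-0.27). Of the 27 regulators and targets, Ppargc1a (0.55) and Cyp4a31 (0.76) were higher. At ZT21, Acot3 had 79.5, 6.68 and 115 CPM in LPS livers of day 7, against 1.82, 1.96 and 5.87 CPM in NC livers, with replicates 1 and 3 far above replicate 2. Without the 4 libraries apart, none of the genes named for the averaged comparison in these sentences was called (adjusted p 0.0595 to 0.379), and genes called higher included Slc27a5, Echdc3 and Acad9 (0.17 to 0.20) and the PPAR-alpha target gene Cyp4a10 (0.68).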

How the data were processed

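Poly(A) RNA was sequenced in 48 liver libraries of male mice as strand-marked paired reads, per the labels' protocols. The authors deposited 1 table of raw read counts per gene. STAR 2.5.2b, StringTie 2.2.1, DESeq2 1.38.1, FastQC 0.11.5, SAMtools 1.3.1 and build GRCm38 are named in the submitters' processing notes without roles, and the sources used here do not state how reads were counted or whether strand was used. The deposited counts were analysed in R 4.3.3 with edgeR 4.0.16 (limma 3.58.1): filterByExpr with a minimum count of 10, TMM scaling, robust quasi-likelihood tests and Benjamini-Hochberg adjustment over all genes tested, with a threshold of 0.05. The 36 libraries of day 7 were fitted with 1 mean per group or with 24 h cosine terms per arm, and the 18 of ZT21 with 1 mean per group. All comparisons of days with NC share the 3 NC libraries of ZT21, while the trend and the contrasts of days 11 and 7 and of days 7 and 3 compare LPS libraries only, with the NC libraries in the estimate of the spread. Scripts were tested on simulated counts. Some results are not reported here. The members, role groups, marker lists and motifs were chosen with earlier results of these data known. All 31 members were accounted for, and every member past the threshold was named. Values by library were given for some members with small p, for Cpt1a and Bdh1, and for others because of values already seen. Decr1 and Hadha, with small p between day 7 and day 3, were not shown by library. Other pathway genes were named where past the threshold, at most 8 per comparison. Gene positions and overlaps come from an annotation of GRCm38, and promoters from RefSeq on GRCm38.p6. Alternatives were DESeq2 1.42.0, other scaling, no filter, a replicate block, leaving out libraries and other NC times. No replicate pair agreed within counting noise (48 pairs, smallest chi-square per gene 1.48, where noise gives 0.455). This check cannot tell separate animals from repeat preparations. In LPS livers of days 3, 5 and 9 replicates 1 and 2 were closer to each other (2.48, 1.86 and 1.48) than to replicate 3 (4.59 to 6.35).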

Additional observations from a re-analysis of the deposited data

Results flagged for a closer look

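LPS livers of different days differed from each other in direct tests at ZT21, and with no NC livers of the same days the effect of LPS on each day was not compared. Between day 7 and day 3 the log2 difference of LPS livers was called for 23 genes: Fabp1 (1.39), Cpt1a (1.36), Slc25a20 (1.01), Crat (2.22), Crot (-1.40), Acadvl (0.38), Acadl (0.70), Acads (0.48), Acad11 (0.60), Hadh (0.55), Hadha (0.67), Hadhb (0.50), Acaa2 (0.47), Eci1 (0.44), Eci2 (0.83), Decr1 (0.92), Decr2 (1.10), Acaa1a (0.39), Acaa1b (1.46), Ehhadh (0.90), Hsd17b4 (0.59), Pex11a (1.15) and Bdh1 (0.54). Between day 11 and day 7 it was called for 8 genes: Cpt1a (-1.10), Crat (-1.60), Acadl (-0.50), Hadha (-0.36), Eci2 (-0.45), Decr1 (-0.44), Decr2 (-0.66) and Bdh1 (-0.95). Both comparisons include replicates 1 and 3 of day 7, the libraries that stood apart, and leaving these out left a lone day-7 library.

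In 5 of the 31 genes, against 5.99% of all genes tested, every LPS library lay on opposite sides of the shared NC libraries on a pair of days, and the difference between those days was not tested against NC. Crot was below NC on day 7 (log2 -0.50) and above on day 9 (0.31). The other four were above NC on day 7 and below on day 5. Hadha was at 0.26 on day 7 and -0.21 on day 5, Hadhb at 0.26 on day 7 and -0.16 on day 5, Decr1 at 0.32 on day 7 and -0.26 on day 5, and Decr2 at 0.43 on day 7 and -0.74 on day 5.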

How the results depend on the processing

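Counts of called genes are over the 31. The share of all genes called also changed between fits, as for the rhythm in NC (22.5%, and 30.4% without the 4 libraries apart). Where that share is not given, a change in count cannot be read as particular to these genes. The replicate numbers did not pair the libraries: deviations of same-numbered libraries correlated from -0.45 to 0.23, and 21 of 48 libraries correlated best with their own number. With a replicate block the count on day 7 at ZT21 was 4 against 2, and every other count stayed within 1.5 times. Without the 4 libraries apart, the counts were 4 for the average of day 7 (2 with them), 1 at ZT5 (0), 2 at ZT13 (1) and 18 for the rhythm in NC (6). Leaving them out left a lone LPS library of day 7 at ZT21, so counts for that group against NC or other days are not given. With all 48 libraries in 1 fit, day 5 had 8 (13), day 7 had 1 (2), the trend 9 (15) and day 11 against day 7 had 5 (8). In that fit NC of the nearest clock time gave 10 on day 3 and 0 on day 5, against 14 and 7 lower with NC at ZT21. Day 3 had 5 and 7 against NC at ZT1 and ZT9, and day 5 had 4 and 5 against NC at ZT5 and ZT9. Etfb on day 3 turned to 0.0090 in log2 against NC at ZT9. Without the filter on low counts the average of day 7 had 1. DESeq2 gave 2 at ZT13, 3 at ZT21, 5 on day 7 and 1 on day 9. The cause of these moves was not tested. Leaving out 1 library gave 1 to 7 for the average of day 7, 0 to 3 at ZT13, 0 to 4 at ZT21, 0 to 2 for the interaction, 5 to 15 for the rhythm in NC, 4 to 7 for that in LPS, 16 to 21 on day 3, 6 to 13 on day 5, 1 to 8 on day 7, 0 to 1 on day 9, 0 on day 11, 12 to 19 for the trend, 1 to 12 for day 11 against day 7 and 20 to 24 for day 7 against day 3. With 3 libraries a group, small changes of single genes could not be told from the spread.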
